A study of Homo sapiens with 4 samples.

Results

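Variant U1 small nuclear RNA genes are the genes whose symbols start with RNVU in the deposited annotation. They were taken as each listed peak whose nearest gene carries such a symbol, which gave 11 of 8871 peaks and 10 of 7640 genes. A gene enters this set only where a peak had been called next to it, so the presence of signal there is how the members were chosen and is described without a test. All 11 peaks lie on the long arm of chromosome 1, over 5.23 Mb. The label was checked against the annotation: each of the 10 genes is typed as snRNA in the deposited table, and RefSeq gives 8 of the 9 it lists under the same symbol as snRNA and RNVU1-2 as a pseudogene.

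The libraries came from DB cells, a human line established from a diffuse large B-cell lymphoma. DB cells labelled ZHX2_Mut4 (Mut4 below) were set against DB cells labelled ZHX2, with 1 ChIP library made with an antibody against ZHX2 and 1 input library in each arm. ZHX2 is a zinc-finger and homeobox transcription factor. The labels do not describe the residues altered in Mut4, and are silent on endogenous ZHX2, to which the antibody would also bind, in either arm. Over the listed peaks the Mut4 library held 271694 reads and the ZHX2 library 541900, with medians of 22 and 45 reads per peak. With 1 library per arm no difference below was tested between conditions. Folds are Mut4 over ZHX2 after the authors' scaling, and the ranges after them are exact 95% Clopper-Pearson intervals that cover counting error only.

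U1 small nuclear RNA is the RNA core of the U1 particle, which pairs with the start of an intron and opens spliceosome assembly, and which also keeps RNA polymerase II transcripts from being cut and polyadenylated too early. Its genes are short and are themselves transcribed by RNA polymerase II. Their promoters hold a proximal sequence element bound by the SNAPc complex and a distal element bound by factors such as the octamer protein POU2F1 and ZNF143, and Integrator cuts the new transcript at its end. The standard human copies lie on the short arm of chromosome 1, and the variant copies, which differ from them by base changes, lie mainly in repeated segments of the long arm. Copies are near-identical in places, so reads could have been shared between them and the value of any 1 copy is uncertain to that extent.

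Sequence bearing on a variant U1 promoter was at hand for RNVU1-2A alone. The promoter window of the long noncoding RNA gene LOC105379574 (RefSeq, GRCh38.p14, chr1:144551965-144552264, plus strand, 250 bases before to 50 after its start) lies wholly inside the RNVU1-2A peak. RNVU1-2A is transcribed the other way, from 144551943, so that this window covers the bases from 22 to 321 upstream of the U1 start, read on the opposite strand. It is shown because it holds the upstream region of a member. Capitals mark the match, on the strand of the U1 gene, to ACCGTG, 6 letters looked for as part of the proximal sequence element.

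LOC105379574 window: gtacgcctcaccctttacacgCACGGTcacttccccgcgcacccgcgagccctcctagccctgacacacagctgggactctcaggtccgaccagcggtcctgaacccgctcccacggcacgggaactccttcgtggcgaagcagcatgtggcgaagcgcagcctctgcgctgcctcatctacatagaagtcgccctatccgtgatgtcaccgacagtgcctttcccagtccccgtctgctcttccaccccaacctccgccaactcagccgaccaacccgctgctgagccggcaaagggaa

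The ACCGTG match lay 43 to 48 bases upstream of the RNVU1-2A start. Of 35116 RefSeq promoter windows of the same length, searched on both strands, 5.64% held these letters. The window held no ATGCAAAT (octamer, in 1.77% of windows), no CCAAT (34.6%), no GGGCGG (GC box, 45.0%) and no ACTACA (the start of the ZNF143 site, 8.46%). Its GC content was 64.0%, against a median of 58.7% over all windows. A match is a description of letters and not a shown binding site.

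The peak of RNVU1-2 also holds a microRNA gene, MIR6077, on the plus strand at 148388282 to 148388363, on the side of the peak where the U1 gene ends. Its hairpin is given with the mature stretch in capitals, and its mature form with the seed in capitals (RefSeq, GRCh38.p14).

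MIR6077 hairpin: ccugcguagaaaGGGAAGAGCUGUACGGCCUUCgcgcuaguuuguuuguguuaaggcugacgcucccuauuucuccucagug

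hsa-miR-6077: gGGAAGAGcuguacggccuuc

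Most of the variant U1 peaks lay over the genes themselves. In 9 of 11 peaks the whole RefSeq gene fell inside the peak, and in 10 the centre of the peak was within 1000 bp of the annotated start, against 6563 of all 8871 peaks. The deposited distance matched a RefSeq gene end within 1 bp for 10 peaks, 4 on the plus and 6 on the minus strand. RNVU1-30 was the peak without such a match. Peak lengths ran from 668 to 1483 bp with a median of 1014 bp, against 950 bp over all peaks, while a typical U1 gene is 164 bp long.

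The share of a peak that lay upstream of the start varied. The RNVU1-31 peak was the farthest upstream, with its centre at -469 bp from the start and 85.0% of its length there. RNVU1-15 had 63.5% of its length upstream, and RNVU1-14 was centred within 3 bp of the start. The RNVU1-29 peak lay wholly downstream, with its near edge 5.5 bp past the start, and 29.3% of the RNVU1-7 peak was upstream.

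**Figure D1:**
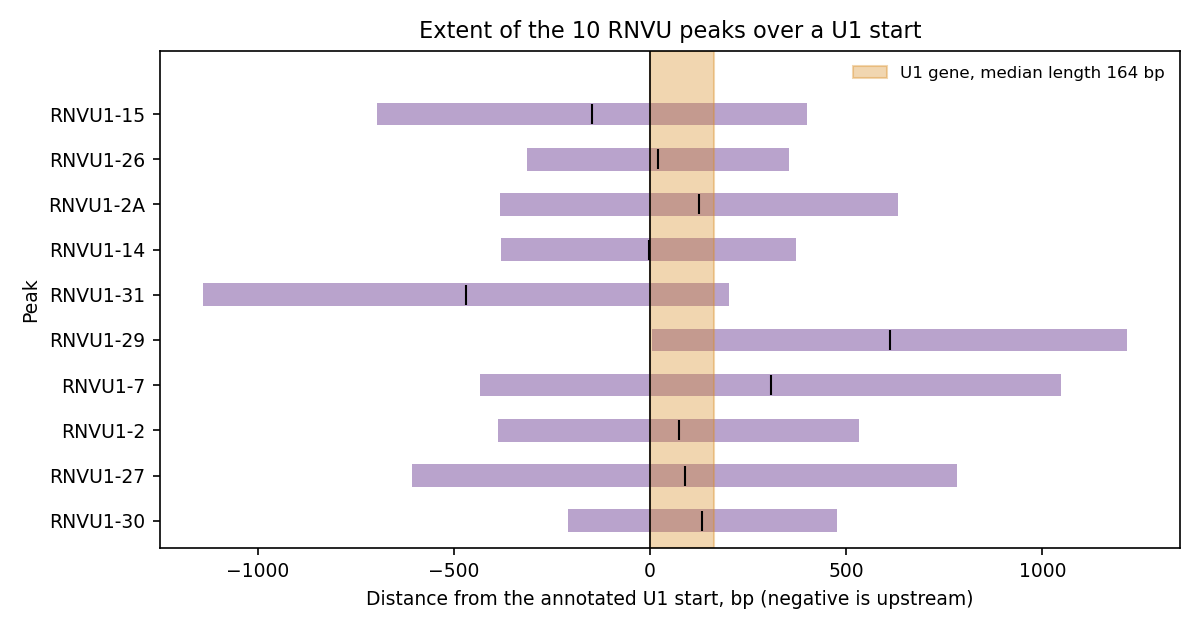
Extent of the 10 RNVU peaks within 1000 bp of a U1 start, as distance from that start in bp, with negative values upstream. Bars are the deposited peaks, ticks their centres and the shaded band a U1 gene of 164 bp; 9 of the 10 bars reach across the start, and that of RNVU1-29 begins just past it.

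All 11 peaks were marked by the authors as unique to ZHX2, as were 95.5% of all listed peaks, yet each of them held reads in both libraries. The Mut4 library had 5 to 24 reads per variant U1 peak (median 10) and the ZHX2 library 26 to 81 (median 48). Per kilobase of peak the members held a median of 11.9 reads in Mut4 and 39.6 in ZHX2, against 21.3 and 44.4 over all listed peaks. In mean signal they were ordinary to weak peaks, at percentiles from 5.81 to 74.1 of all peaks with a median of 39.4. The members thus stood near the typical peak in the ZHX2 library and below it in the Mut4 library.

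Relative to the authors' scaling, 10 of the 11 peaks were lower in Mut4 and 1 was higher, where 50.4% of all listed peaks were lower and 49.6% higher. The median log2 fold was -0.79 (quartiles -1.22 and -0.54), against -0.0046 over all listed peaks (quartiles -0.44 and 0.39). Summed over the 11 peaks, Mut4 had 142 reads and ZHX2 513, a fold of 0.593 (0.489 to 0.715). Over 2-fold lower in Mut4 were 5 peaks, where 8.50% of all listed peaks were, and over 2-fold higher 0, where 5.33% were. The counting interval lay below a fold of 1 at 4 peaks and above it at 0, where 11.0% of all peaks had one below and 11.0% one above. These members were picked with earlier results in view and share sequence and a chromosome arm, so the counts are set beside the background without a test. All 11 were also marked as unique to ZHX2, as were 95.5% of all listed peaks. A listing through the ZHX2 arm can favour a lower value in Mut4, and the interval of the summed fold does not allow for it. Intervals of summed folds, here and below, also take the peaks of a set as having 1 fold and leave out the spread between them.

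The direction was relative to reads in listed peaks. With no scaling between the libraries every log2 fold moves by -1.10, and all 11 variant U1 peaks then had fewer reads in Mut4, as had 95.5% of all peaks. Higher and lower below are relative to the authors' scaling, and every peak given as higher with a fold under 2.14 had fewer reads in Mut4. Centred on the other listed peaks of the same stretch of chromosome 1, a setting chosen after seeing the data, 9 were lower, as were 35.4% of all listed peaks, and RNVU1-2A at its gene joined RNVU1-2 above 0.

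**Figure D2:**
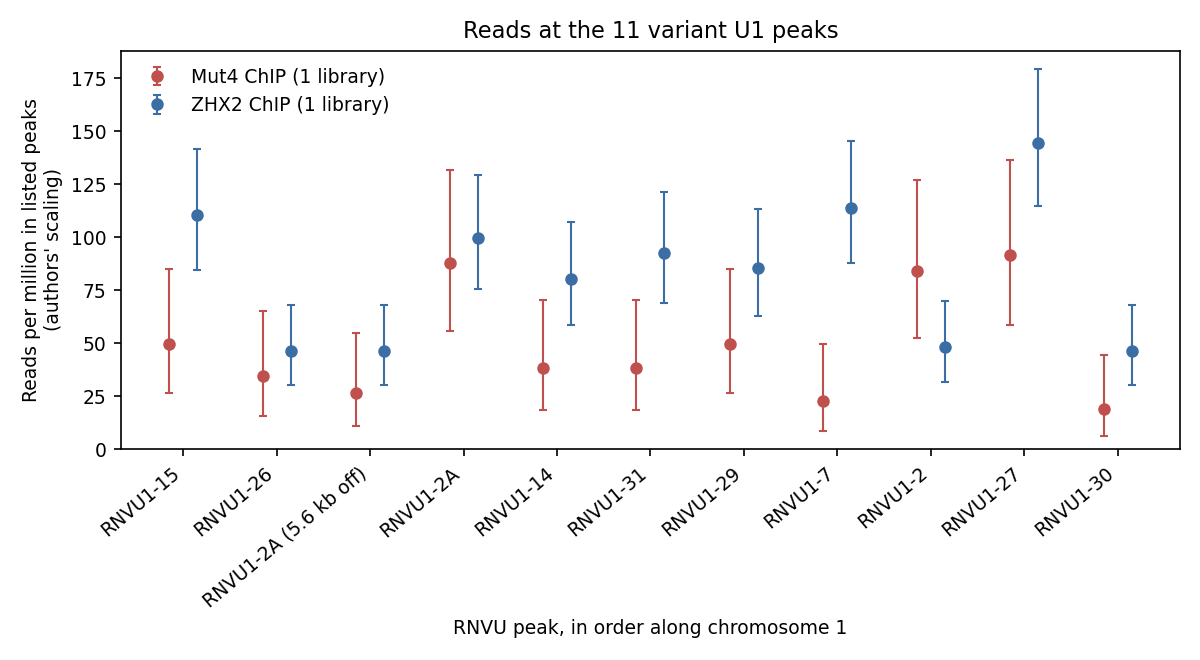
CPM (reads scaled to the library's reads in listed peaks) at each of the 11 RNVU peaks, in order along chromosome 1, for the Mut4 library (left of each pair) and the ZHX2 library; bars are exact 95% Poisson intervals for counting error. The Mut4 point is below the ZHX2 point at each peak but that of RNVU1-2.

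RNVU1-7 (ENSG00000206585) stood lowest in Mut4. Its peak, at 148037868 to 148039351, held 6 reads in Mut4 and 64 in ZHX2, or 22.9 and 114 CPM (reads scaled to the library's reads in listed peaks). That is a fold of 0.201 (0.0710 to 0.461), or 4.98-fold lower in Mut4, at percentile 0.817 of all peaks by fold. The authors' deposited table gives it an adjusted p of 0.00132, the smallest among the members and the single one under 0.05, where 2.53% of all peaks were lower in Mut4 with such a p. That p compares the 2 libraries and not the conditions.

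Among the other members, 3 had a counting interval below 1. RNVU1-31 (ENSG00000270722), at 145465579 to 145466919, had 10 reads in Mut4 and 52 in ZHX2, a fold of 0.412 (0.187 to 0.819). RNVU1-15 (ENSG00000207205), the first along the arm at 144411881 to 144412976, had 13 reads in Mut4 and 62 in ZHX2, a fold of 0.449 (0.226 to 0.825). RNVU1-14 (ENSG00000207501), at 145280737 to 145281489, had 10 and 45 reads, a fold of 0.476 (0.214 to 0.958) whose upper end came close to 1. Centred on the other listed peaks of the stretch, the log2 fold of RNVU1-14 was -0.83 with an interval of -1.98 to 0.18, which included 0. Their adjusted p-values, from the authors' deposited table, were 0.138 for RNVU1-31, 0.160 for RNVU1-15 and 0.301 for RNVU1-14.

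RNVU1-30 (ENSG00000206828), the last along the arm at 149636556 to 149637242, had the same fold as RNVU1-31 from fewer reads, 5 in Mut4 and 26 in ZHX2, and its interval of 0.123 to 1.09 included 1. RNVU1-29 (ENSG00000273768) is listed by RefSeq at the same start as LOC124904613. Its peak at 146376813 to 146378024 had 13 reads in Mut4 and 48 in ZHX2, a fold of 0.580 (0.288 to 1.09). RNVU1-27 (ENSG00000274210), the strongest of the 11 by mean signal, had 24 and 81 reads at 148521994 to 148523384, a fold of 0.634 (0.385 to 1.01). At these 3 genes a fold of 1 was within counting error.

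The RNVU1-26 peak and the RNVU1-2A peak over its gene lie within 27.0 kb of each other near the start of the stretch. They were the members nearest to 1. RNVU1-26 (ENSG00000275291), at 144523667 to 144524335, had 9 reads in Mut4 and 26 in ZHX2, a fold of 0.741 (0.306 to 1.63). RNVU1-2A (ENSG00000278099) had a pair of peaks. The one over the gene, at 144551312 to 144552326, which holds the sequence window above, had 23 reads in Mut4 and 56 in ZHX2, a fold of 0.879 (0.516 to 1.45).

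The other RNVU1-2A peak was of a different kind. It is classed as intergenic, at 144546010 to 144546705, with its centre 5586 bp downstream of the U1 start, and overlapped no RefSeq U1 gene. It held 7 reads in Mut4 and 26 in ZHX2, a fold of 0.577 (0.211 to 1.36). Without it the median log2 fold of the members was -0.93.

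RNVU1-2 (ENSG00000238825), which RefSeq lists as a pseudogene, was the member higher in Mut4. Its peak at 148388118 to 148389039, which holds MIR6077, had 22 reads in Mut4 and 27 in ZHX2, a fold of 1.74 (0.947 to 3.18) that included 1. On the CPM scale it stood at 83.9 in Mut4 and 48.1 in ZHX2. Per kilobase it held the most reads of the 11 in Mut4, 23.9, and the fewest in ZHX2, 29.3.

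**Figure D3:**
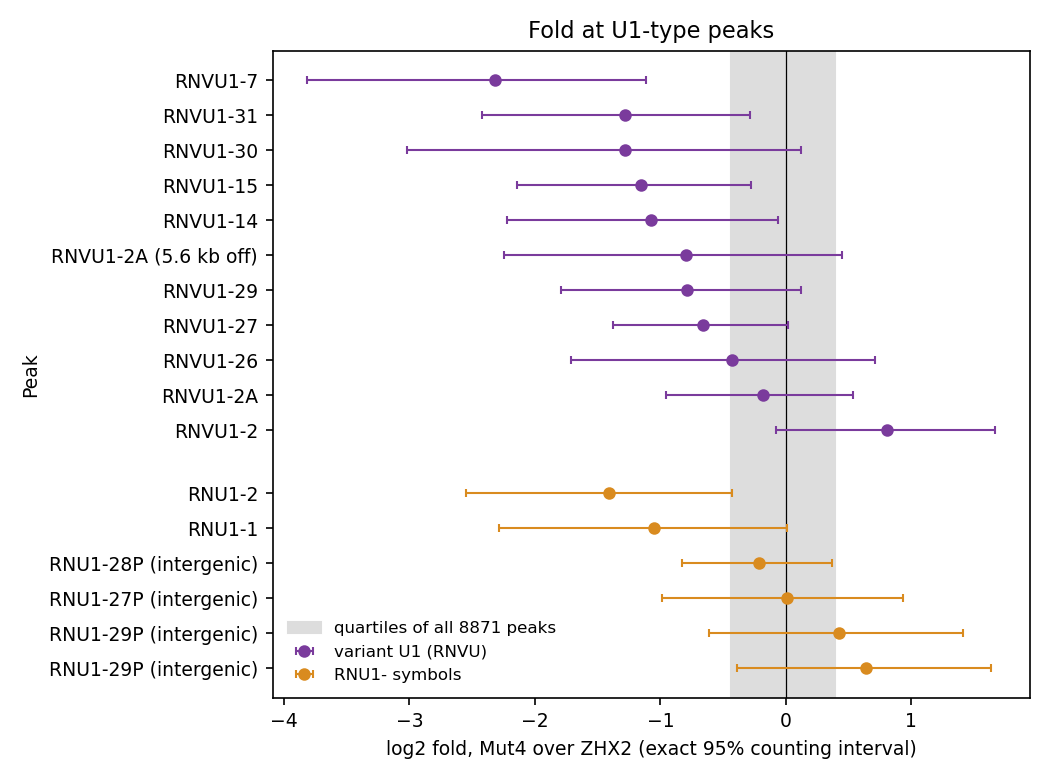
Log2 fold, Mut4 over ZHX2, of the 11 RNVU peaks and the 6 peaks with RNU1- symbols, with exact 95% counting intervals; the grey band runs between the quartiles of all 8871 peaks. RNVU1-7 lies lowest at -2.32, RNVU1-2 is the RNVU point above 0 at 0.80, and RNU1-1 and RNU1-2 lie at -1.05 and -1.41.

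Many variant U1 genes had no listed peak. RefSeq lists 25 RNVU loci, 17 as snRNA genes and 8 as pseudogenes, with 22 on chromosome 1. A listed peak overlapped 9 of them: 8 of the 17 snRNA genes and 1 of the 8 pseudogenes. The other 16, among them RNVU1-18, RNVU1-6 and RNVU1-3, lay between 8340 and 383683 bp from the nearest listed peak, with RNVU1-28 closest. A locus without a listed peak has no value in the deposited table, and signal there could not be read.

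The standard U1 genes on the short arm of chromosome 1 were also lower in Mut4 at the copies with a peak. RNU1-2 (ENSG00000207005), at 16895870 to 16896637, had 10 reads in Mut4 and 57 in ZHX2, a fold of 0.376 (0.171 to 0.742). RNU1-1 (ENSG00000206652), at 16513775 to 16514572, had 9 reads in Mut4 and 40 in ZHX2, a fold of 0.482 (0.206 to 1.01). Summed, the pair had 19 reads in Mut4 and 97 in ZHX2, a fold of 0.419 (0.242 to 0.691). RNU1-3 and RNU1-4 had no listed peak, the nearest being 21860 and 12056 bp away.

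The 4 peaks annotated to the U1 pseudogenes RNU1-27P, RNU1-28P and RNU1-29P, on chromosomes 14 and 7, were intergenic and overlapped no U1 copy. Their folds were 1.00 (0.505 to 1.91) at RNU1-27P, 0.861 (0.565 to 1.29) at RNU1-28P, and 1.34 (0.653 to 2.66) and 1.56 (0.765 to 3.10) at the RNU1-29P peaks. Each of these intervals included 1.

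Other listed peaks of the same stretch were set beside the members to show what the region did. Between the first and the last variant U1 peak lay 21 other peaks of 20 genes, 13 lower and 8 higher in Mut4, with a median log2 fold of -0.24 (quartiles -1.10 and 0.13). Summed, they had 481 reads in Mut4 and 1186 in ZHX2, a fold of 0.868 (0.780 to 0.966), against 0.593 (0.489 to 0.715) for the variant U1 peaks. Over the 774 remaining peaks of chromosome 1 the median log2 fold was -0.084. Single log2 folds ran from -1.90 to 0.62 among these 21 peaks and from -2.32 to 0.80 among the variant U1 peaks. The intervals of the summed folds leave out this spread between peaks. The difference between the 2 sets of peaks was not tested.

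The neighbours were not alike. Over 2-fold lower in Mut4 were 6 of the 21, where 8.50% of all listed peaks were, and over 2-fold higher 0, where 5.33% were. The counting interval lay below a fold of 1 at 6 of the 21 and above it at 0, where 11.0% of all peaks had one below and 11.0% one above. Those over 2-fold lower were NOTCH2NLC, with 4 reads in Mut4 and 32 in ZHX2, SRGAP2B (9 and 53), NBPF9 (4 and 23), NBPF10 (7 and 39), AC245100.9 (13 and 66) and LINC01145 (10 and 46), named after their values were seen. NBPF and NOTCH2NL genes belong to families with many copies on this arm. Other NBPF peaks of the stretch differed from these. NBPF12, with 24 reads in Mut4 and 38 in ZHX2, was higher at a fold of 1.35 (0.776 to 2.31). NBPF15, with 10 and 33 reads, had 0.649 (0.285 to 1.35). The 9 peaks from POLR3C to HJV, a run of 8 genes between RNVU1-31 and RNVU1-29, had log2 folds between -0.20 and 0.62, a grouping made after their values were seen. The part of position, copy sharing of reads and copy number in the variant U1 values was not tested.

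**Figure D4:**
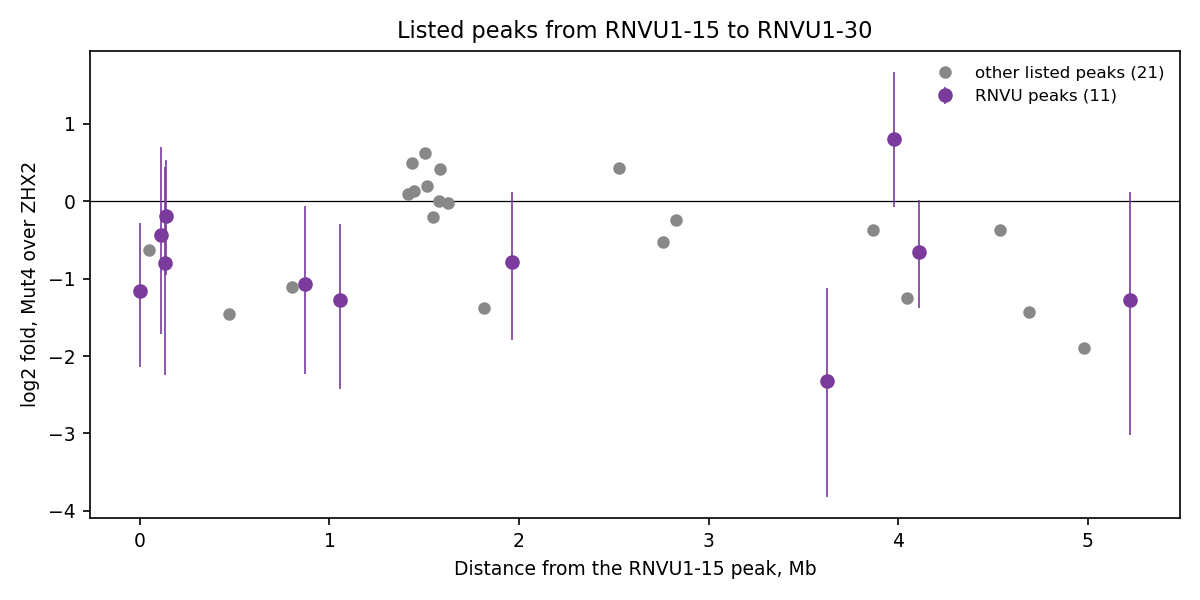
Log2 fold, Mut4 over ZHX2, of all listed peaks from RNVU1-15 to RNVU1-30 against distance from the RNVU1-15 peak in Mb; purple points are the 11 RNVU peaks with exact 95% counting intervals and grey points the 21 other peaks. RNVU points lie below 0 along the whole stretch apart from RNVU1-2, and grey points lie both above and below 0.

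Close neighbours differed from the members in some places. No peak of another gene lay within 10 kb of a variant U1 peak, and 7 of the 11 had one within 100 kb. The AC245100.9 peak lies between RNVU1-2 and RNVU1-27, 69.4 and 61.8 kb away. Its fold was 0.422 (0.213 to 0.772), while RNVU1-2 had 1.74 (0.947 to 3.18) and RNVU1-27 0.634 (0.385 to 1.01). LINC01145, 64.5 kb from RNVU1-14, had a fold of 0.465 (0.209 to 0.935), close to the 0.476 of that gene, and NBPF15, 48.0 kb from RNVU1-15, had 0.649 (0.285 to 1.35).

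Genes of other small nuclear and related RNAs were compared next, with pseudogenes by symbol among them. The set left out symbols starting with RNVU or RNU1-, and any U1 copy under another name would remain in it. Within 1000 bp of their starts, 19 peaks of such genes typed as snRNA had 9 lower and 10 higher in Mut4 and a median log2 fold of 0.0091. Of the 19, 1 was over 2-fold lower, at a log2 fold of -1.09 and with a symbol outside the families below, and 2 were over 2-fold higher. The 103 peaks annotated to such genes, at any distance, came from 64 genes, so that some genes were counted more than once. Of these peaks 28 were lower and 75 higher, with a median of 0.51, and 66 were intergenic. Reads per kilobase in Mut4 reached 4951 among them, against 91.8 among the 19 within 1000 bp of a start. Of the 103, 2 were over 2-fold lower and 40 over 2-fold higher, where 8.50% and 5.33% of all listed peaks were. The 10 variant U1 peaks within 1000 bp of a start had 9 lower and 1 higher and a median of -0.93. The difference between the sets was not tested.

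By family, RNU4-2, a U4 gene of the major spliceosome, had 37 reads in Mut4 and 74 in ZHX2, a fold of 1.07 (0.701 to 1.61). RNU11, of the minor spliceosome, had 28 and 64 reads, a fold of 0.937 (0.578 to 1.48), and RNU4ATAC, of the same spliceosome, had 15 and 42, a fold of 0.765 (0.394 to 1.41). All 4 peaks of RNU5 symbols were higher in Mut4, from RNU5E-4P at 1.13 (0.739 to 1.71) to RNU5D-1 at 1.31 (0.822 to 2.05), each within counting error of 1.

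U6 and 7SK genes are transcribed by RNA polymerase III from promoters that share the proximal element. RNU6-2 had 86 reads in Mut4 and 183 in ZHX2, a fold of 1.01 (0.770 to 1.31). RNU6-1276P, a pseudogene by its symbol, had 1.52 (1.15 to 1.99), and RNU6-9 had 0.685 (0.465 to 0.989). The 8 U6 peaks within 1000 bp of a start had 4 lower and 4 higher and a median log2 fold of -0.0090. RN7SK, the 7SK RNA that holds the elongation factor P-TEFb inactive, had 17 and 51 reads, a fold of 0.714 (0.386 to 1.26). At RN7SL1 and RN7SL2, the RNA of the signal recognition particle, folds were 0.666 (0.420 to 1.03) and 0.812 (0.561 to 1.16). All 5 RN7SL peaks within 1000 bp of a start were lower in Mut4, with a median log2 fold of -0.22 and a summed fold of 0.807 (0.649 to 0.998). Over all 15 RN7SL peaks 8 were lower and 7 higher, 3 of these over 2-fold, and the summed fold was 1.01 (0.885 to 1.15).

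The remaining families were small or lay away from starts. Families were set by the start of the symbol and do not hold all 103 peaks typed as snRNA. Of the 40 over 2-fold higher, most carried other symbols, with 1 RNU2 and 6 RNU6 peaks past that fold. RNU2-29P had 24 reads in Mut4 and 24 in ZHX2, a fold of 2.14 (1.16 to 3.94), and RNU2-63P had a fold of 0.588 (0.300 to 1.08). None of the 7 RNU7 peaks lay within 1000 bp of a start; their median log2 fold was -0.22, with RNU7-193P at a fold of 1.96 (1.17 to 3.26). No listed peak carried an RNU12 or RNU6ATAC symbol.

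**Figure D5:**
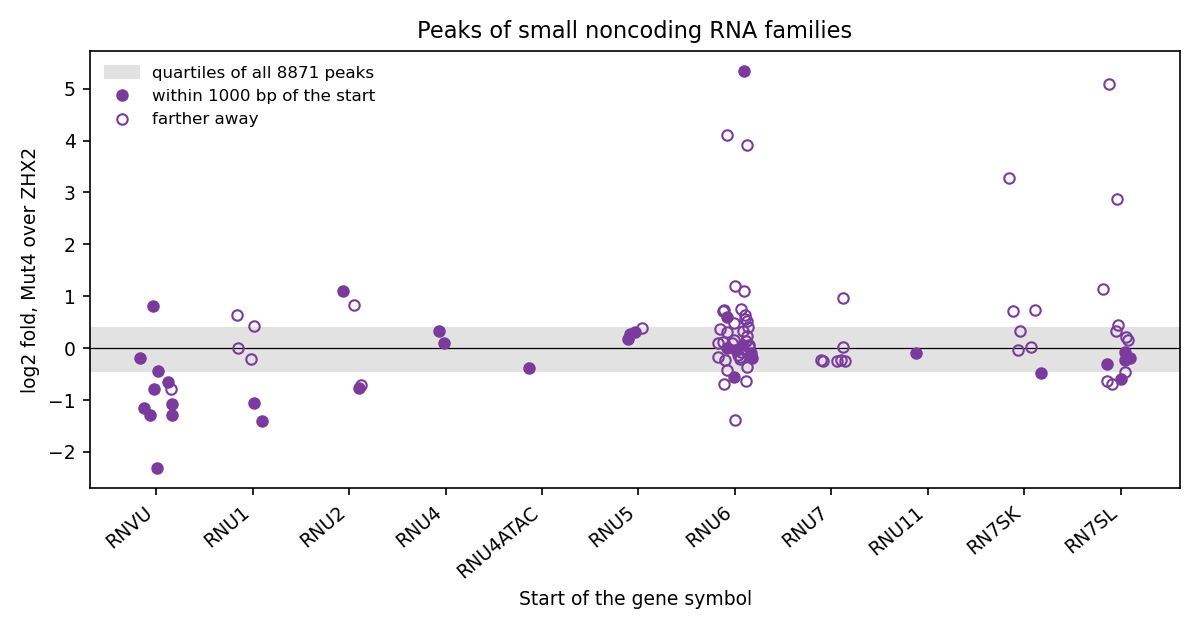
Log2 fold, Mut4 over ZHX2, of peaks grouped by the start of the gene symbol, filled within 1000 bp of the annotated start and open farther away; the grey band runs between the quartiles of all 8871 peaks, and RNU6-937P, with 13 reads in Mut4 and 0 in ZHX2, is not drawn. Most RNVU points lie under the band, as do RNU1-1 and RNU1-2, while filled points of most other families lie in or near it.

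Peaks at the protein genes that make up, build and transcribe the U1 particle were described from 6 lists. Of 76 listed genes 39 had a peak, 37 of them within 1000 bp of the start; that of POU2F1 was 2450 bp and that of TGS1 37663 bp away. By the peak nearest the start, 13 were lower and 26 higher in Mut4, with a median log2 fold of 0.19. None was over 2-fold lower and 3 were over 2-fold higher, where 8.50% and 5.33% of all listed peaks were.

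Proteins of the U1 particle and its partners had 9 peaks, 2 lower and 7 higher in Mut4, with a median log2 fold of 0.53. SNRNP70, which encodes the U1 70K protein that binds the first stem of U1 RNA, had 51 reads in Mut4 and 46 in ZHX2, a fold of 2.37 (1.56 to 3.62). LUC7L, a homolog of a yeast U1 particle protein, had 57 and 53 reads, a fold of 2.30 (1.56 to 3.41). Adjusted p-values taken from the authors' deposited table were 0.0157 for SNRNP70 and 0.0150 for LUC7L, from the same pair of libraries. SNRPA, the U1 A protein, and SNRPC, the U1 C protein, had folds of 1.59 (0.976 to 2.58) and 1.47 (0.836 to 2.54). LUC7L2 (1.14, 0.845 to 1.54), LUC7L3 (0.837, 0.574 to 1.20) and TIAL1 (0.853, 0.584 to 1.22) were within counting error of 1. SNRNP70, SNRPA and SNRPC were named after their values were seen. With no scaling between the libraries the log2 folds of SNRNP70 and LUC7L were 0.15 and 0.10, and the other 7 genes had fewer reads in Mut4.

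Factors that start or end small nuclear RNA transcription were mixed. Of 7 promoter factors with a peak 3 were lower and 4 higher in Mut4. ZNF143 had 43 reads in Mut4 and 176 in ZHX2, a fold of 0.523 (0.366 to 0.734), and GTF2F1, a TFIIF subunit, had 62 and 64 reads, a fold of 2.07 (1.44 to 2.99). SNAPC3, the SNAPc subunit with a peak, had 1.06 (0.683 to 1.60), and ZNF76 had 1.07 (0.688 to 1.64). Of 9 Integrator genes 4 were lower and 5 higher, with INTS8 at 0.521 (0.351 to 0.754), NABP2 at 1.14 (0.731 to 1.74), INTS4 at 0.810 (0.505 to 1.27) and INTS5 at 1.54 (0.952 to 2.46). Their adjusted p-values, from the authors' deposited table, were 0.0583 for ZNF143, 0.0401 for GTF2F1 and 0.0824 for INTS8.

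Relative to the authors' scaling, assembly and processing genes were mostly higher in Mut4, most of them within counting error of 1. With no scaling between the libraries, every gene of these lists with a peak had fewer reads in Mut4. TGS1, counted among the higher genes, had an intergenic peak 37663 bp from the start. Of 7 genes of the SMN complex, export and cap list 2 were lower and 5 higher, with NCBP2, a cap-binding subunit, at 1.49 (1.05 to 2.10), GEMIN4 at 0.808 (0.585 to 1.10), XPO1 at 1.16 (0.685 to 1.93) and DDX20 at 1.17 (0.679 to 1.96). Of 5 genes of the little elongation complex and Cajal body list 1 was lower, with ELL2 at 0.661 (0.385 to 1.09), ELL at 1.17 (0.780 to 1.74), ICE2 at 1.04 (0.647 to 1.63) and ICE1 at 1.43 (0.852 to 2.36). The Sm proteins SNRPD1 and SNRPB had 0.940 (0.617 to 1.41) and 1.24 (0.761 to 1.97).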

How the data were processed

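The analysis used the authors' deposited comparison of the 2 ChIP libraries. Per the file headers, its columns are a log2 fold, a log2 CPM, a p-value, an adjusted p-value, and other values for position, length and distance, all computed by the authors. The submitters' processing notes name hg38, BWA 0.7.17, MACS2 2.2.6, HOMER and further tools without roles; the sources used here do not give the handling of reads that map to several copies. The deposited log2 fold is ZHX2 over Mut4; folds here are Mut4 over ZHX2. Positions are those of the deposited table, whose counting from 0 or 1 is not stated.

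Whole reads were recovered by solving both values for each peak, with 0.25 prior reads in the fold, and 2 prior reads and a dispersion of 0.05 in the CPM. This returned both deposited values from whole reads, within 1e-09, for 8871 of 8871 peaks (100%). Scaled library sizes were the read totals times 0.965 for Mut4 and 1.04 for ZHX2. Recovery was also run on simulated data made with the same formulas and priors, which cannot check whether the authors used them. Reads carried no molecular identifiers, so copies of 1 molecule could not be told apart by them. Picard 2.22.2-0 is among the tools the submitters name without a role, and whether copies were removed is not given. The counting intervals take each read as independent and would be too narrow where reads were copies. Depth outside listed peaks is unknown, input libraries were not used, and 0 columns were left out.

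The rule for named genes took all RNVU and RNU1- peaks, up to 4 members of each list or family by mean signal, and peaks within 10 kb of a member, of which no other gene had any. Outside it, other genes of the same stretch of chromosome 1, SNRNP70, SNRPA, SNRPC, POU2F1, TGS1 and RNU6-937P were named after their values were seen. The members and lists were chosen with earlier results of these data known. Python 3.11.15 and scipy 1.17.1 were used.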

Additional observations from a re-analysis of the deposited data

How the results depend on the processing

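The median log2 fold of the variant U1 peaks was -0.79 and ran from -0.93 to -0.55 under every alternative but unscaled reads, which gave -1.89; these were centring on all peaks, on promoter peaks or on the other peaks of the stretch, 1 peak per gene, peaks at or above the median signal (3 peaks), the promoter class, peaks within 1000 bp of a start, and leaving out RNVU1-7, RNVU1-2 or the distant RNVU1-2A peak. Centring on the stretch and leaving out peaks were chosen after seeing the data. The count over 2-fold lower in Mut4 was 5 (8.50% of all peaks), against 10 with unscaled reads (55.7%), 3 centred on the stretch (4.91%), 8 at a threshold of 1.5 (19.1%) and 1 at 4 (1.24%). The count over 2-fold higher was 0 (5.33% of all peaks), against 1 centred on the stretch and 1 at a threshold of 1.5 (15.6%), each time RNVU1-2. The share of all peaks centred on the stretch is not given for that count. Intervals below 1 numbered 4 (11.0% of all peaks), 10 with unscaled reads and 3 centred on the stretch, where that of RNVU1-14 included 1. Intervals above 1 numbered 0 (11.0%), and 1 centred on the stretch. Shares of all peaks with such intervals are not given for these 2 settings. With unscaled reads 95.5% of all peaks were lower, so 10 members there are not set apart from the background. For single peaks, the 3 centrings and the deposited fold with its prior kept all 11 values within their counting intervals, and unscaled reads moved 5 out of them. With 5 to 24 reads per member in Mut4, each member whose fold lay within 2-fold of 1 had an interval that included 1. No paired analysis was possible because each arm had 1 ChIP library and the labels carry no replicate numbers; for the same reason no replicate could be left out.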
